A study of Homo sapiens with 18 samples.

Results

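The regions described here were very wide H3K27ac domains of NB4 cells, an established human cell line from acute promyelocytic leukemia that carries the PML-RARα fusion. Enriched regions (peaks) of 6 H3K27ac libraries on chromosomes 1 to 22 were merged where they shared 1 bp or more, and the domains were chosen by the width of the merged region, 30000 bp or more, and by a peak in all 6 lists. Of 36228 merged regions, 1252 (3.46%) met the rule, which was 6.42% of the 19504 regions with a peak in all 6 lists. Every merged region of 30000 bp or more had a peak in each list, so the second condition removed none. The rule therefore used the H3K27ac peak positions of both conditions, and the called lengths, pieces and widths below are descriptions without a test. H3K27ac reads were tested, but they were counted in the same peaks, so those tests are not independent of the rule.

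The treatment was maltonis, a synthetic molecule derived from maltol and kept as a stock in distilled water, given to NB4 cells at 10 µM for 24 h; the other group was not treated. Chromatin immunoprecipitation followed by sequencing was performed for H3K27ac, H3K4me3 and H3K9me3, with 3 libraries for each mark and condition, 18 in all. All libraries came from 1 cell line at 1 dose and 1 time, with replicates that the study describes as biological, and the p-values measure the spread between these libraries. A comparison of the 2 conditions asks how the treatment moved each mark inside the widest acetylated stretches.

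Acetylation of histone H3 at lysine 27 marks active promoters and enhancers. Long, nearly continuous stretches of it, often described as super-enhancers or stretch enhancers, are known to lie around genes that are highly transcribed and characteristic of a cell's identity, and in leukemic blasts around drivers of proliferation. Trimethylation of lysine 4 on the same histone marks promoters, whereas trimethylation of lysine 9 is a repressive mark of heterochromatin and of some gene families that are kept silent. Coordinates are hg19, the build given with the deposited lists. No gene annotation or genome sequence of that build was used here, so domains are named by position and no gene is assigned to them.

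The H3K27ac lists held 17659587 to 20412339 reads in peaks per library, and the lists of the maltonis libraries covered 169 to 182 Mb against 215 to 226 Mb in untreated cells. The lowest island score in a list, below which the caller reported no island, was also lower in maltonis lists, at 27.1 to 32.7 against 36.2 to 39.9. Its part in the changes of length was not tested beyond the alternatives given at the end. Counts in any pair of libraries of 1 condition differed by 4.05 to 4.26 times the sampling noise (chi-square over degrees of freedom), so no library was a copy of another. Reads were summed over called peaks, so a stretch that was not called gave no reads, and a fall in reads and a fall in called length share their source.

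Wide domains ranged from 30000 to 310000 bp, with a median of 41500 bp, and together spanned 64.6 Mb. Most were close to the minimum, with 818 under 50000 bp and 73 of 100000 bp or more. Although they were 6.42% of the regions found in all lists, they held 25.1 to 25.5% of all called H3K27ac base pairs in untreated libraries and 28.1 to 28.7% in maltonis libraries. Their share of reads was 29.7 to 29.8% and 30.5 to 30.7%. Read density did not set them apart from regions of 20000 to 30000 bp, since the median was 104 reads per called kb in domains and 105 in that class, against 59.2 in regions under 5000 bp. Few domains were called in 1 piece, at 47 to 171 by library. A peak of 30000 bp or more lay in 107 domains in all 6 lists, whether or not other pieces lay beside it. Another 621 held none of that length in any list, so the width of those 621 came from joining shorter peaks.

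The domains were unevenly spread over the chromosomes. Chromosome 12 carried 179 of them (14.3%), although it held 6.0% of the regions found in all lists. Chromosome 7 carried 131 domains, or 11.6 for every 100 such regions, and chromosome 11 carried 104 (10.7 per 100). Chromosomes 9 (73 domains, 8.58 per 100), 20 (56, 8.56 per 100) and 2 (134, 7.83 per 100) followed, whereas chromosome 1 carried 52 (2.76 per 100). Chromosomes 12 and 7 also held more of the H3K9me3 peaks (9.3% and 10.9%) than of the H3K4me3 peaks (6.24% and 6.3%), as did chromosome 2 (11.6% and 8.03%), whereas chromosome 11 held less (4.76% and 5.43%). Chromosome 9 held more (6.06% and 4.45%) and chromosome 20 less (2.79% and 3.23%). More was also held by chromosomes with fewer domains per 100 regions, such as 6 (7.74% and 5.53%, 6.25 per 100) and 13 (3.68% and 2.25%, 4.91 per 100). No input library was used here, so differences in unenriched read depth along the chromosomes could not be set beside these values. Neighbouring domains were separated by a median of 281 kb, but 96 gaps were 1000 bp or less. The longest run of domains with gaps of at most 10000 bp was made of 5 domains at chr8:128514601-129125800, a stretch of 611 kb.

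Most domains contained H3K4me3. An H3K4me3 peak lay in 1030 of 1252 domains (82.3%) in all 6 H3K4me3 lists, in 174 in some of the lists, and in 48 in none. The share rose with width, from 42.4% of regions under 5000 bp to 78.9% of domains of 30000 to 50000 bp and 93.2% of those of 100000 bp or more, and the part of region length in this was not tested. H3K4me3 peaks covered only 5.93 to 6.65% of the domain length, and 99.2 to 99.7% of the H3K4me3 windows lay under called H3K27ac. H3K9me3, the repressive mark, was also common, since 550 domains (43.9%) held an H3K9me3 peak in all 6 lists, and 218 held none. In narrower regions the share was 12.9%, but it was 24.6% in those of 20000 to 30000 bp. The part of region length in this was not tested either. Among the 73 widest domains, 63 held H3K9me3 in all 6 lists. On chromosome 19, 38 of 46 domains (82.6%) held H3K9me3 in all lists.

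After 24 h of maltonis the domains were called shorter and in more pieces. The called length inside them was 54.8, 56.9 and 56.4 Mb in untreated replicates 1 to 3 and 51.1, 50.9 and 48.6 Mb in maltonis replicates 1 to 3. All maltonis libraries lay below all untreated ones, with means of 56.0 ± 1.1 and 50.2 ± 1.38 Mb (SD, n = 3 each), a difference of -10.4%. In the 18252 narrower regions the difference was -16.1%. The number of pieces was 4385, 3924 and 3947 in untreated libraries and 4716, 5209 and 5701 in maltonis libraries. Here all maltonis libraries were higher, at 5209 ± 493 against 4085 ± 260 (n = 3 each), a difference of 27.5%, whereas in narrower regions it was 4.9% with overlapping groups.

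**Figure D1:**
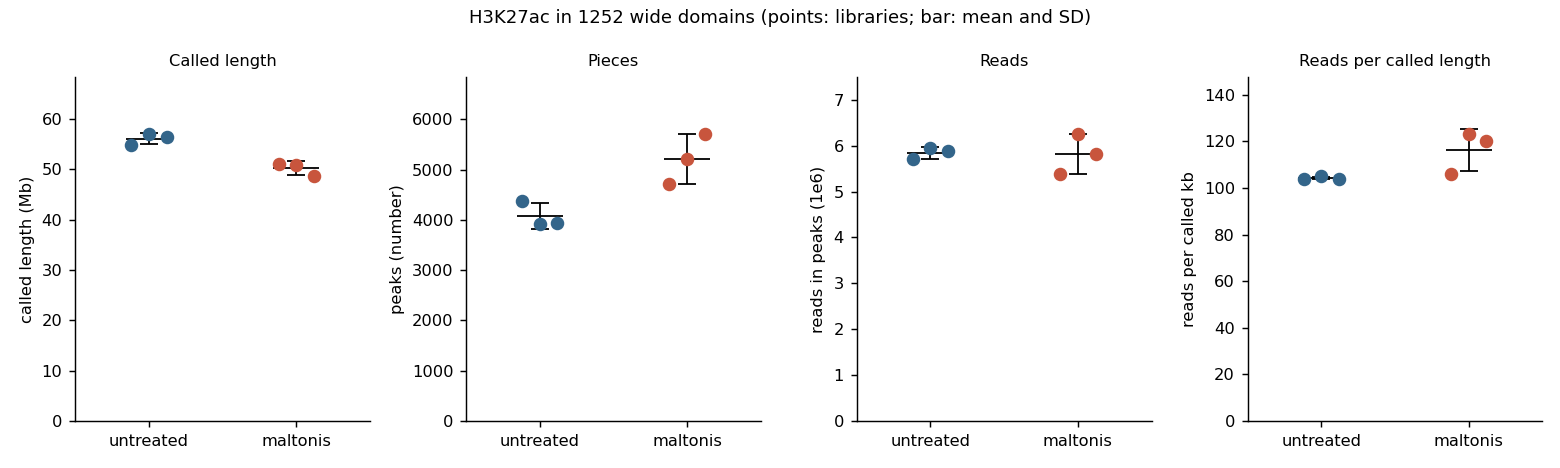
H3K27ac summed over the 1252 wide domains in each library: called length in Mb, number of peaks (pieces), reads in peaks (axis in units of 1e6) and reads per called kb. Points are libraries, and bars show mean and SD of 3. Length was lower and pieces were higher in every maltonis library, whereas reads overlapped between conditions. Reads and reads per called kb were not scaled to library depth.

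The summed reads inside the domains, which were not scaled to library depth, showed no such separation. In narrower regions the unscaled sums overlapped as well (-0.422%). As a share of all reads in a list, the domains held 29.7 to 29.8% in untreated and 30.5 to 30.7% in maltonis libraries, without overlap. The unscaled sum in the domains was 5840338 ± 125243 in untreated and 5817005 ± 426973 in maltonis libraries (n = 3 each), with overlapping groups. The sign of the difference turned when untreated replicate 2 (0.477%) or maltonis replicate 1 (3.25%) was left out. The density was 104, 105 and 104 reads per called kb in untreated libraries and 106, 123 and 120 after maltonis. Maltonis replicate 1 was close to the untreated values and the other 2 maltonis libraries were above them. These densities were not scaled to depth, and maltonis replicate 1 had the fewest reads in its list (17659587). The part of depth in its place near the untreated values was not tested. In narrower regions the density differed by 18.9%, against 11.2% in the domains.

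The fragmentation was visible in single domains. The number of domains called as 1 unbroken piece was 116, 171 and 166 in untreated libraries and 90, 75 and 47 in maltonis libraries, and domains in 10 or more pieces numbered 9 to 12 and 23 to 54. The median longest piece of a domain shrank from 21300, 23200 and 23200 bp to 18000, 17400 and 16000 bp. By domain, the mean length was lower after maltonis in 1009 and higher in 241, with a median change of -10.0%, against -13.5% in narrower regions. The called length did not overlap between conditions, with maltonis lower, in 535 domains (42.7%), beside 28.4% of all regions tested in the same way, and with maltonis higher in 60 (4.79%, beside 3.85%). The share with maltonis lower was 39.2% in regions of 20000 to 30000 bp, so the domains were close to the class next to them. Pieces were higher without overlap in 173 domains (13.8%, beside 2.6% of all regions) and lower in 13 (1.04%, beside 0.554%). With 3 libraries against 3, the exact two-sided permutation test of a single domain cannot give a p below 0.1, so these counts are descriptions. The narrower regions had few pieces to begin with, at 21769 ± 378 over 18252 regions in untreated libraries.

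The positions that were lost were examined in windows of 200 bp. Of all domain windows, 58.7% (37.9 Mb) were called in all 6 lists, 2.69% (1.74 Mb) in all untreated and no maltonis list, and 0.436% (0.282 Mb) in all maltonis and no untreated list. In regions of 10000 to 30000 bp these shares were 45.9%, 4.34% and 0.485%, so the lost share was smaller in domains. Lost windows formed 1719 stretches in 749 domains, with a median of 600 bp and a longest of 8400 bp. Gained windows formed 307 stretches in 215 domains, also with a median of 600 bp. Of the lost windows, 33.4% lay at a domain end, beyond the outermost window called in any maltonis list, and the others lay inside the domain. In regions of 10000 to 30000 bp, 69.2% of lost windows lay at an end. Gained windows had like shares at an end, beyond the outermost window called in any untreated list: 33.5% in domains and 69.8% in those regions.

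Lost windows were poor in H3K4me3. H3K4me3 was called in at least 1 list in 1.24% of the lost windows, against 18.0% of the windows kept in all 6 H3K27ac lists. In domains with H3K4me3, the median distance from a lost window to the nearest H3K4me3 peak was 6.8 kb, and from a kept window 2.4 kb. Gained windows were poor in H3K4me3 as well, with 2.7% and a median distance of 5.6 kb. The remaining windows, which were called in some of the lists of either condition, resembled the lost ones, with H3K4me3 in 1.07% and a median distance of 7.2 kb. H3K9me3 was called in at least 1 list in 19.0% of lost, 40.5% of kept and 21.5% of the remaining windows. Windows called in every library were thus nearer to H3K4me3 than windows called in a part of the libraries.

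Differences in reads were tested over all 19504 regions with edgeR, at an FDR of at most 0.01 and an absolute log2 fold change of at least 0.58. These limits are those of the study, which applied them to another test (DiffBind) on consensus peaks. Among the domains 119 had fewer reads after maltonis (9.5%, beside 19.5% of all regions) and 47 had more (3.75%, beside 8.05%). With the fold criterion, domains thus carried called changes at a lower share than regions as a whole in both directions, which did not hold at the FDR alone. Their log2 fold changes were also less spread, with an SD of 0.43 against 0.64 and a median of 0.01 against -0.02, and 86.3% of domains were within ±0.58. When the called length of each library entered as an offset, so that reads per called length were compared, 25 domains had fewer reads (2%, beside 4.61%) and 13 had more (1.04%, beside 2.18%). The latter count was 8 when untreated replicate 2, untreated replicate 3 or maltonis replicate 1 was left out. Both fits called 23 domains fewer and 4 more.

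**Figure D2:**
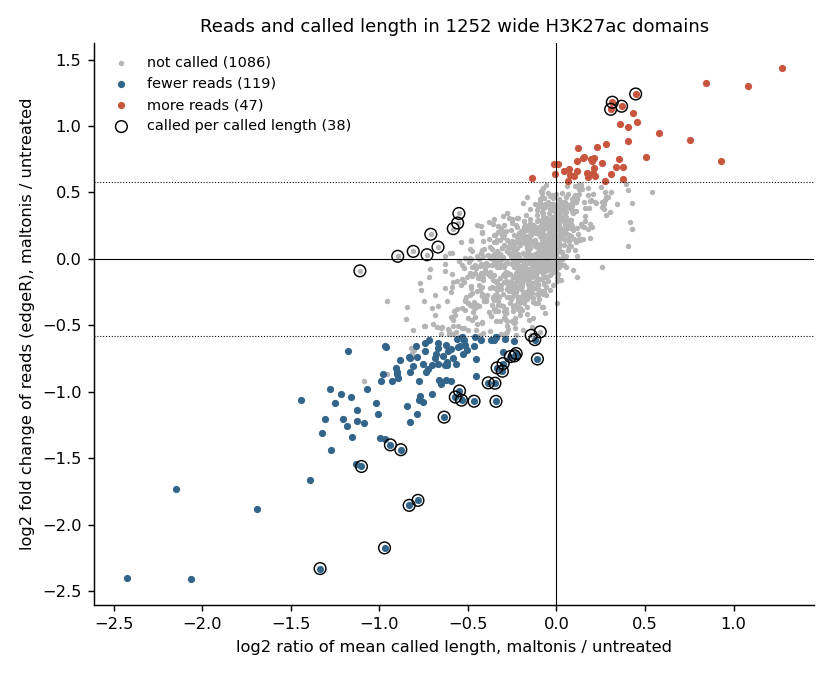
Each point is a wide domain: the log2 ratio of mean called length (x axis) and the edgeR log2 fold change of reads (y axis), maltonis over untreated. Blue and red points are the 119 domains with fewer and the 47 with more reads, rings mark the 38 called per called length, and dotted lines are at ±0.58; most domains with fewer reads lay left of 0.

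The share of called regions declined with width on the side of fewer reads. It was 20.0% under 5000 bp, 22.4% from 5000 to 10000 bp, 18.6% from 10000 to 20000 bp and 15.4% from 20000 to 30000 bp. It was 11.4% in domains of 30000 to 50000 bp, 6.93% from 50000 to 100000 bp and 1.37% (1 domain of 73) at 100000 bp or more. The value of a wide region is a sum over many peaks, in which opposite changes can cancel, and this was not tested. Width came from the peaks of both conditions, so it is not independent of the change in reads. At an edgeR FDR of at most 0.01 alone, without the fold criterion, the order was the opposite: 404 domains had fewer reads (32.3%, beside 27.6% of all regions) and 461 had more (36.8%, beside 28.6%).

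**Figure D3:**
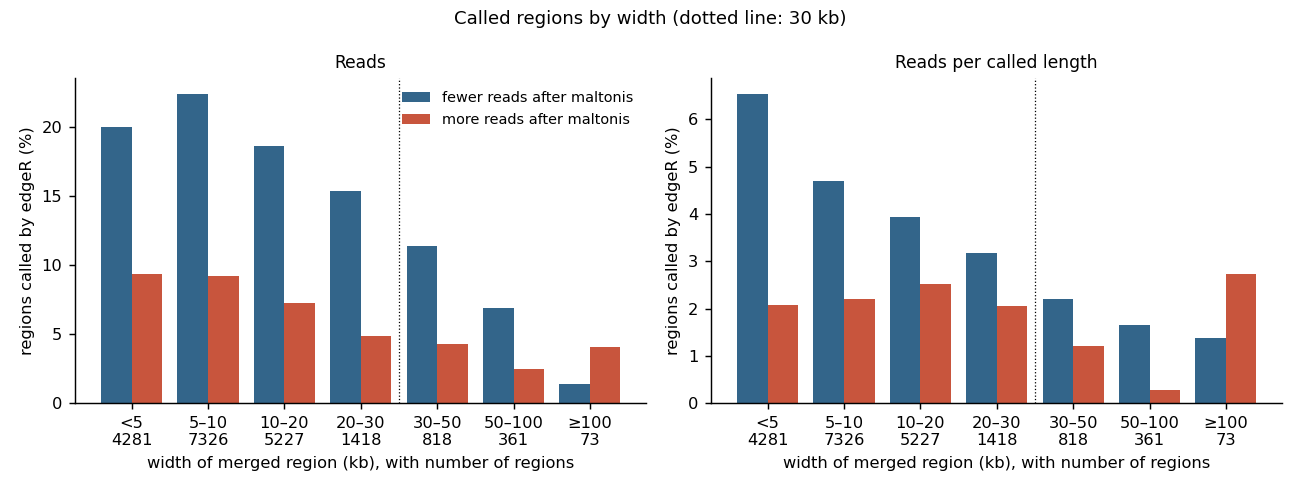
Percentage of merged regions called by edgeR with fewer (blue) or more (red) reads after maltonis, by width in kb with the number of regions under each class. The left panel tests reads and the right panel reads per called length; right of the dotted line are the wide domains, where fewer-read calls of reads drop from 11.4% to 1.37%.

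The 119 domains with fewer reads differed from the others in several respects. Their median width was 38400 bp and their median density 76.9 reads per called kb, against 41800 bp and 107 in the 1086 domains not called. This density was taken over all 6 libraries, so it includes the maltonis reads that made the call and is not independent of it. Called length was lower without overlap in 115 of them, and both values come from the same peaks. H3K4me3 was present in all 6 lists in 66 (55.5%) against 933 (85.9%) of domains not called. Of the 104 with any H3K4me3, its length was higher without overlap in 8 (7.69%, beside 39.5% of all regions with any) and lower in 12 (11.5%, beside 4.23%). It was higher in 398 (37.7%) and lower in 45 (4.26%) of 1056 domains not called. In the 47 domains with more reads, H3K4me3 was longer in 22 of 44 (50.0%, beside the same 39.5%) and shorter in none (beside 4.23%).

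The strongest losses were in domains of 31.0 to 47.8 kb. A domain near the limit can reach 30000 bp through the peaks of a single condition, so its loss or gain is not independent of the rule. A peak of 30000 bp or more was called in all untreated and no maltonis list in 46 domains, and the reverse held in 5. At chr7:157325401-157373200 the reads were 9340, 9564 and 9432 in untreated libraries and 1984, 2164 and 1939 after maltonis. The groups were far apart and tight, and the domain, which was 1 or 2 pieces in untreated cells, was broken into 5 to 7. The log2 fold change was -2.18 ± 0.0287 (SE, edgeR FDR 1.34e-10), and per called length it was still -1.35 (edgeR FDR 3.29e-06). H3K4me3 was slightly shorter, from 4362, 4526 and 4758 bp to 3657, 4257 and 4096 bp, with its main peaks kept.

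At chr4:8264601-8295600 the reads were 2614, 2831 and 2645 in untreated and 525, 542 and 492 in maltonis libraries. The domain was 1 piece in every untreated list and 3 pieces in every maltonis list. The log2 fold change was -2.33 ± 0.0497 (edgeR FDR 2.79e-09) and -1.15 per called length (edgeR FDR 0.000212). H3K9me3 covered 3200, 2400 and 4400 bp before and was not called in any maltonis list.

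In other domains with fewer reads, the reads per called length were not called. At chr11:114016801-114055000, which held neither H3K4me3 nor H3K9me3 in any list, reads were 1537, 1761 and 1723 in untreated and 368, 300 and 245 in maltonis libraries, and the called length went from 33400, 36000 and 37000 bp to 12200, 7000 and 6200 bp. No maltonis library came near an untreated one. The log2 fold change of reads was the lowest of all domains at -2.41 ± 0.123 (edgeR FDR 2.7e-07), but per called length it was -0.46 (edgeR FDR 0.0199) and was not called. At chr14:101153201-101186200 the length went from 26800, 32200 and 31400 bp to 5000, 7000 and 4800 bp, with a log2 fold change of reads of -2.40 (edgeR FDR 2.03e-08) and of -0.12 per called length (edgeR FDR 0.537). The few bases that remained called there carried the density they had before. The third of this kind, chr7:24933801-24968800, had log2 fold changes of -1.88 (edgeR FDR 7.04e-08) and -0.33 (edgeR FDR 0.0556).

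The largest losses in base pairs came from wider domains. At chr7:127695601-127795800 the called length was 88000, 91800 and 94600 bp in untreated and 43600, 52000 and 45400 bp in maltonis libraries. Density there, not scaled to depth, was higher after maltonis in every library, at 102, 106 and 112 reads per called kb against 87.6 to 90.0. With the length offset the log2 fold change was 0.14 (edgeR FDR 0.0802), which was not called. H3K4me3 was longer there. At chr6:34978001-35066400 the length went from 77400, 82400 and 86600 bp to 44600, 38400 and 39600 bp, with a log2 fold change of reads of -1.17 (edgeR FDR 2e-09). At chr7:2631801-2705400 it went from 63800, 57600 and 62000 bp to 27800, 24200 and 27600 bp, with a log2 fold change of -1.21 (edgeR FDR 3.49e-08). Neither of these was called per called length.

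The clearest gains were in a pair of domains of chromosome 6. At chr6:25999401-26289400, 290 kb wide, the reads were 33386, 34275 and 33851 in untreated and 67939, 77668 and 72980 in maltonis libraries. Every maltonis library was far above every untreated one, and the called length filled up from 218400, 222600 and 218400 bp to 286200, 283000 and 281600 bp as 13, 12 and 17 pieces joined into 2, 3 and 4. The log2 fold change was 1.15 ± 0.0127 (edgeR FDR 4.94e-11), and 0.62 per called length (edgeR FDR 6.54e-07). This domain held the longest H3K4me3 of all, in 20 to 22 peaks: 40924, 40920 and 38719 bp in untreated and 50910, 49513 and 48220 bp in maltonis libraries. H3K9me3 was longer as well, at 61000, 71000 and 54800 bp against 32200, 30600 and 37800 bp, so all 3 marks covered more of the domain in every maltonis library.

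The second, chr6:27752801-27874400, repeated this pattern. Reads were 18396, 19016 and 18815 in untreated and 38393, 43941 and 41299 in maltonis libraries, without overlap, and 9, 7 and 7 pieces became 1, 1 and 2. The log2 fold change was 1.18 ± 0.0134 (edgeR FDR 4.94e-11), and 0.70 per called length (edgeR FDR 2.72e-06). H3K4me3 kept its 10 peaks in every list and lengthened from 20442 to 21688 bp in untreated to 24912 to 25835 bp in maltonis libraries. H3K9me3 covered 12600, 15800 and 16000 bp before and 30000, 21600 and 27200 bp after.

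The highest log2 fold change of reads was 1.44 ± 0.029 (edgeR FDR 2e-09), at chr1:149847801-149891600. Reads were 2101, 2256 and 2237 in untreated and 5296, 6122 and 5892 in maltonis libraries. Here the acetylated length spread from 14800, 20400 and 16800 bp to 42400, 42600 and 40600 bp at a like density, with a log2 fold change per called length of -0.02 (edgeR FDR 0.915). H3K4me3 did not follow, with overlapping lengths of 4012 to 7242 and 3309 to 5153 bp. At chr9:16501801-16549800, which lacked H3K4me3 in 4 of 6 lists, reads were 1056, 1223 and 1178 and then 2331, 2974 and 2641. Both the reads, at a log2 fold change of 1.24 (edgeR FDR 8.08e-08), and the reads per called length, at 0.63 (edgeR FDR 0.00157), were called.

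2 of the domains with high fold changes started from few reads and no H3K4me3. At chr20:50022601-50072200 the reads were 969, 682 and 529 in untreated and 1559, 1975 and 1784 in maltonis libraries. At chr15:50292001-50335800 they were 531, 285 and 624 and then 1184, 1229 and 1039. The untreated libraries varied more there than in the domains above, which is seen in SEs of 0.17 and 0.213 around log2 fold changes of 1.32 (edgeR FDR 8.78e-05) and 1.30 (edgeR FDR 0.00043). Neither was called per called length.

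Some domains were called higher only with the length offset. At chr22:42219401-42249800 the reads were 1514, 1707 and 1797 in untreated and 1358, 1749 and 1476 in maltonis libraries, whereas the called length went from 18400, 23000 and 29000 bp to 8600, 15200 and 8800 bp. The reads overlapped and the lengths did not, so the log2 fold change per called length was 0.91 ± 0.179 (edgeR FDR 0.00746). That call was lost when any library but maltonis replicate 2 was left out. At chr12:46355001-46388200 (0.74, edgeR FDR 0.00715) the reads likewise overlapped and the lengths did not. At chr11:73451601-73484400 (0.79, edgeR FDR 0.00714) it was the lengths that overlapped, while reads were 1272, 1554 and 1264 before and 1673, 1744 and 1606 after (log2 fold change 0.34, edgeR FDR 0.002). For the last 2 domains, 5 of 6 omissions removed each of those calls. In all 3 the single H3K4me3 peak was longer in every maltonis library.

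The widest domain of all barely moved. At chr19:10178001-10488000, 310 kb wide, reads were 49971, 51322 and 50282 in untreated and 47462, 55187 and 51838 in maltonis libraries, and the called length stayed between 301000 and 307600 bp in all 6. Both measures overlapped, and the log2 fold change was 0.07 (edgeR FDR 0.00295). H3K9me3 lay over most of it and was longer after maltonis, at 265600, 261400 and 257600 bp against 225000, 249400 and 233000 bp. The next in width, chr12:104844801-105152800, had a log2 fold change of 0.17 (edgeR FDR 7.74e-06) and called lengths of 291600 to 298400 bp. At chr12:26955601-27193200 it was 0.27 (edgeR FDR 8.65e-07). All of these were under the fold criterion.

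The run of domains on chromosome 8 contained the only one of the 5 widest domains whose pieces were more without overlap after maltonis. At chr8:128781601-129035600, 254 kb wide, the pieces were 13, 11 and 7 in untreated and 19, 23 and 28 in maltonis libraries. Reads were 21421, 22579 and 22611 before and 15561, 18997 and 17508 after, and the called length went from 240000, 243800 and 250200 bp to 202200, 223400 and 206400 bp. All 3 measures separated the conditions, but the log2 fold change of -0.31 ± 0.0248 (edgeR FDR 3.73e-06) was under the fold criterion. H3K9me3 was shorter too, from 93600 to 100400 bp to 84600 to 93200 bp, and H3K4me3 overlapped.

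**Figure D4:**
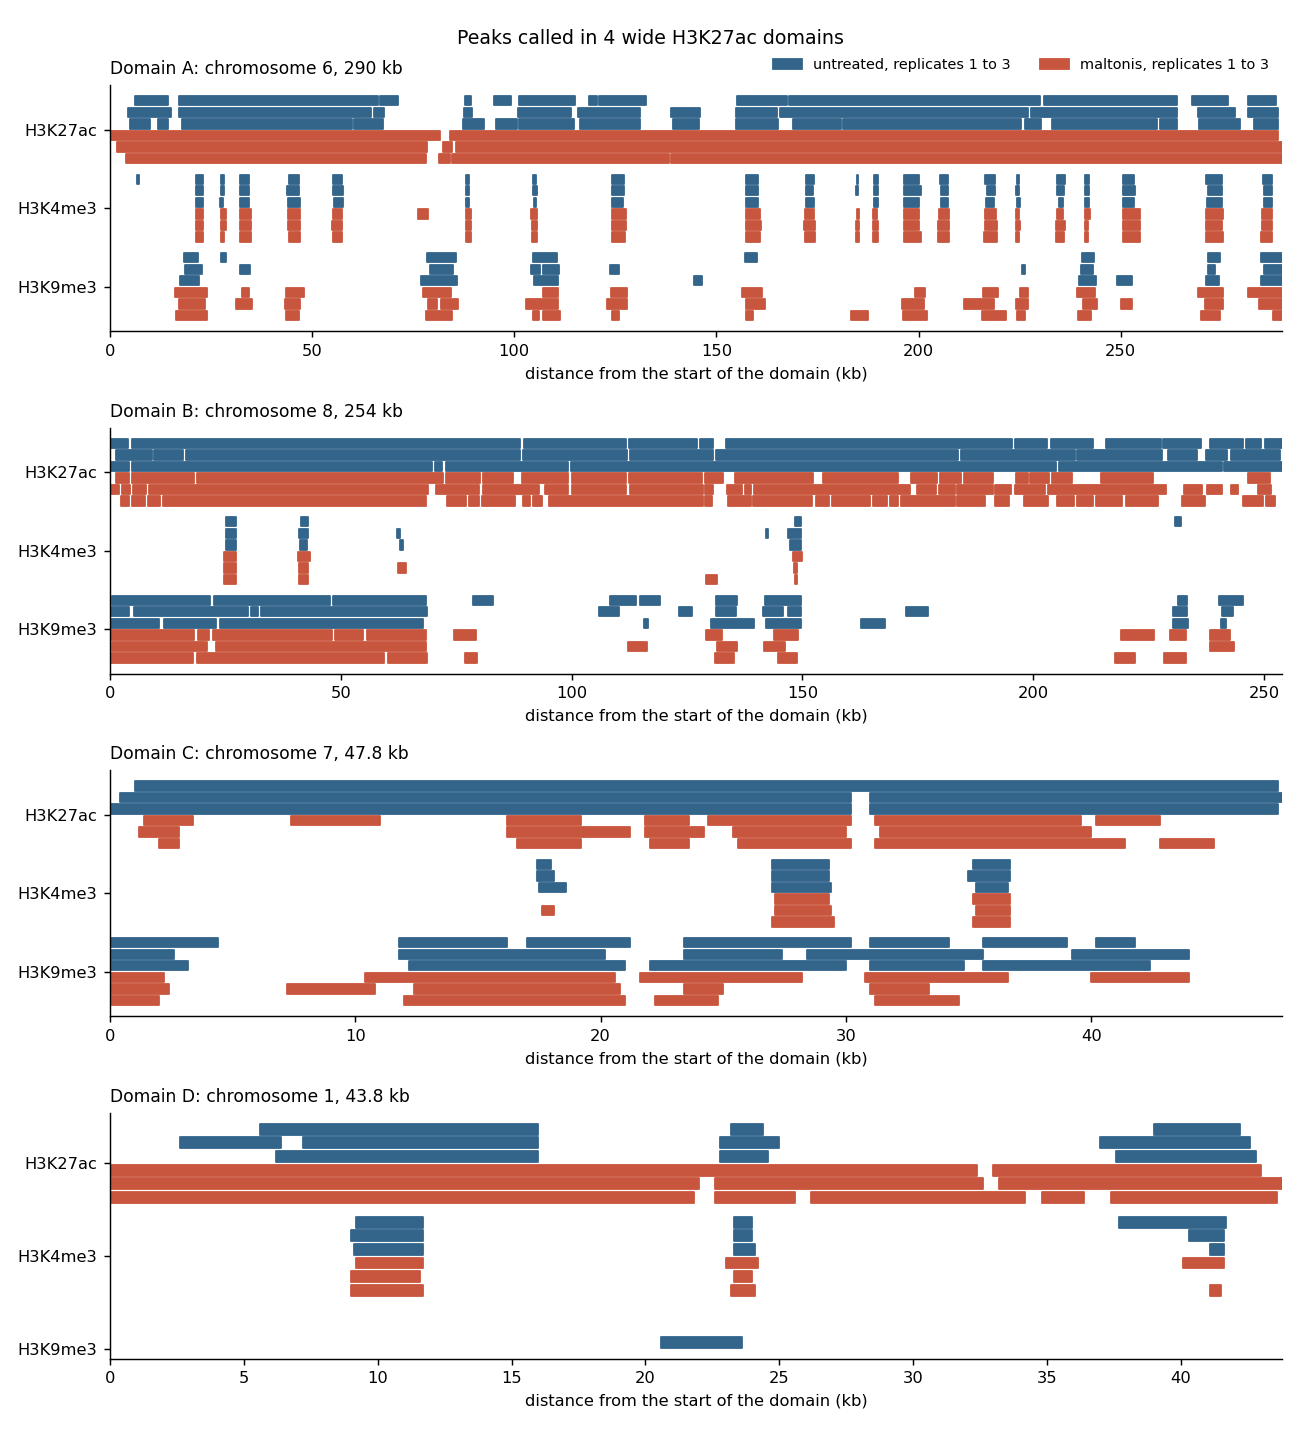
Peaks called in 4 domains by distance from the domain's start in kb, for H3K27ac, H3K4me3 and H3K9me3, with 3 untreated (blue) above 3 maltonis (red) libraries. A is chr6:25999401-26289400, where 13, 12 and 17 pieces became 2, 3 and 4; B is chr8:128781601-129035600, broken into 19, 23 and 28; C is chr7:157325401-157373200, in 5 to 7 pieces after maltonis; D is chr1:149847801-149891600, where acetylation spread.

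H3K4me3, which the rule did not use, covered more of the domains after maltonis in fewer peaks. Its covered length in the domains was 3.88, 3.85 and 3.83 Mb in untreated and 4.21, 4.30 and 4.30 Mb in maltonis libraries. The groups did not overlap, and the means of 3.85 ± 0.0286 and 4.27 ± 0.0469 Mb (n = 3 each) differed by 10.8% (exact two-sided permutation p = 0.1, the smallest that 3 libraries against 3 allow). Peaks numbered 2409, 2423 and 2443 and then 2364, 2381 and 2387, so a peak covered 1589 ± 22.7 bp before and 1795 ± 11.3 bp after. A like difference was present in narrower H3K27ac regions (11.2%), while H3K4me3 outside both differed by -33.2%, from 2.27 ± 0.109 to 1.51 ± 0.224 Mb. By domain, H3K4me3 was longer without overlap in 428 of the 1204 domains that had any (35.5%, beside 39.5% of all regions) and shorter in 57 (4.73%, beside 4.23%).

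Single domains showed larger steps. At chr12:11846201-12025400, 179.2 kb wide, H3K4me3 covered 1340, 911 and 850 bp in untreated and 9349, 8760 and 6392 bp in maltonis libraries. Its 1 or 2 peaks became 6, 6 and 3 inside an H3K27ac length that overlapped between conditions, while H3K27ac reads had a log2 fold change of 0.41 (edgeR FDR 5.94e-08), under the fold criterion. At chr2:70286201-70376000 it went from 6568, 6306 and 6080 bp to 11379, 10877 and 10474 bp. The reverse was seen at chr19:48946601-49172200, with 14214, 20577 and 16546 bp before and 10946, 12540 and 13398 bp after. It was also seen at chr10:72308201-72368400, where 4826, 4264 and 5750 bp became 965, 722 and 1152 bp. At chr1:6545601-6576400 the H3K4me3 length went from 2631, 6533 and 3630 bp to 1470, 2102 and 1584 bp together with H3K27ac reads, which had a log2 fold change of -0.92 (edgeR FDR 1.02e-07).

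**Figure D5:**
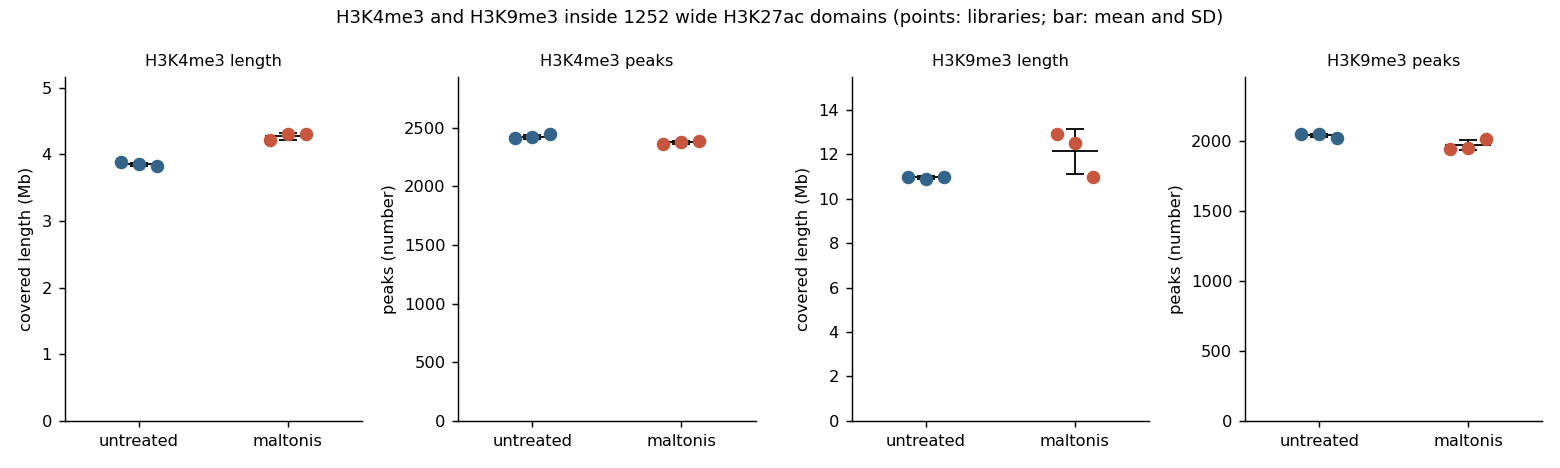
Covered length in Mb and number of peaks of H3K4me3 and H3K9me3 inside the 1252 wide H3K27ac domains, by library, with the mean and SD of 3. H3K4me3 length was higher (3.83 to 3.88 against 4.21 to 4.30 Mb) and its peaks fewer in every maltonis library, whereas H3K9me3 length overlapped because maltonis replicate 3 lay at 11.0 Mb.

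H3K9me3 covered 11.0, 10.9 and 11.0 Mb of the domains in untreated libraries and 12.9, 12.5 and 11.0 Mb in maltonis libraries. Maltonis replicate 3 lay among the untreated values, and its whole list was the shortest, at 141 Mb against 162 to 170 Mb in the other 5. The means of 11.0 ± 0.105 and 12.1 ± 1.01 Mb (n = 3 each) differed by 10.3%, and by 15.5% without that library, when the groups no longer overlapped. Peaks numbered 2047, 2047 and 2025 and then 1945, 1953 and 2015, lower in every maltonis library. H3K9me3 was longer without overlap in 114 of 1034 domains that had any (11%, beside 6.47% of all regions) and shorter in 48 (4.64%, beside 5.2%). At chr10:37897601-38060200 H3K9me3 covered 161000 to 162600 bp of 162.6 kb in every library, and H3K27ac covered 151000 to 159600 bp of the same stretch, so that both marks were called over nearly all of it. H3K4me3 there went from 2900, 2388 and 2631 bp to 959, 418 and 0 bp.

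Reads of H3K9me3 were tested with edgeR over 14165 merged H3K9me3 regions, an analysis added after the data were seen. Counts were scaled between libraries, so a call is relative to the other regions and not a change in the total amount of the mark. The paper reports that total H3K9me3 fell after maltonis, by western blot and mass spectrometry. Of the 775 H3K9me3 regions that overlapped a wide domain, 8 had more reads after maltonis (1.03%, beside 0.254% of all) and 0 had fewer (beside 0.0141%). At an unadjusted edgeR p under 0.05, 154 had more reads (19.9%, beside 8.6% of all) and 61 had fewer (7.87%, beside 5.41%). DESeq2 called 24 with more (3.57%, beside 1.23%) and 2 with fewer (0.297%, beside 0.377%). Its percentages are over fewer regions, with 11144 in place of 14165 over all and likewise fewer than 775 in domains. Leaving out 1 library gave 0 to 4 calls in place of 8, and 0 without untreated replicate 3, maltonis replicate 1 or maltonis replicate 2. 5 of the 8 were on chromosome 19. The longest, chr19:47901001-48070000, had 2435, 2207 and 2235 reads in untreated and 3410, 3274 and 3037 in maltonis libraries, at a log2 fold change of 0.62 (edgeR FDR 0.00127). At chr19:10105801-10212600, which reaches into the widest domain, reads were 1208, 1232 and 1036 and then 1761, 1640 and 1527 (0.62, edgeR FDR 0.00416). The largest fold was at chr13:110029401-110047600, where 37, 69 and 55 reads became 193, 262 and 157 (2.04, edgeR FDR 0.00403).

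Regions at the width limit were part of the same edgeR fit of reads. Just inside, at 30000 bp, chr12:27667201-27697200 had 1428, 1506 and 1353 reads in untreated and 1978, 2146 and 1978 in maltonis libraries. Its log2 fold change of 0.55 (edgeR FDR 4.53e-06) was under the fold criterion. At chr20:10506201-10536200 reads were 983, 1130 and 1062 and then 311, 654 and 370, called fewer (-1.22, edgeR FDR 0.000203). Just outside, at 29800 bp, chr1:198934001-198963800 had 1664, 1585 and 1762 reads and then 1726, 2010 and 1902 (0.21, edgeR FDR 0.00258). At chr2:207001001-207030800 reads were 2998, 3209 and 2955 and then 2989, 3752 and 3307 (0.17, edgeR FDR 0.00354). Both regions just outside were under the fold criterion.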

How the data were processed

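The files were peak lists, 1 for each library, called by the authors per library and not on pooled replicates. Per the methods and the submitters' processing notes, reads were aligned to hg19 with BWA, H3K4me3 peaks were called with MACS2, and broad islands of H3K27ac and H3K9me3 with epic2 (the notes name SICER, whose algorithm epic2 implements). The broad lists hold, as deposited by the authors, the read count of the library in each island and an island score. The H3K4me3 lists hold the authors' −log10 q-value, a fold enrichment ratio (signal) and a score, and no read counts, so their depth is unknown; of these the −log10 q-value was used, for filtering only.

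Peaks were merged, and counts and covered lengths were summed per merged region and library in Python 3.11.15. Counts in the 19504 regions found in all 6 H3K27ac lists were tested with edgeR 4.0.16 (quasi-likelihood test, TMM factors, Benjamini-Hochberg FDR over all regions) in R 4.3.3, with and without log called length as an offset. DESeq2 1.42.0 was an alternative. All 6 libraries of a mark entered each fit with treatment as the only term. The script was tested on simulated data. Errors cover the spread between libraries only. Scaled reads, and lengths called library by library, are relative measures for each mark and do not give its total amount.

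The domains, the criteria and the named domains (widest, most changed, richest in H3K4me3 or H3K9me3, and those at the width limit) were chosen with earlier results of these data known. Gene lists and cell type markers were not used, since no hg19 annotation was used here. Alternatives were another scaling, tool, filter, width minimum, merging distance and peak threshold, a replicate block, and leaving out each library.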

Additional observations from a re-analysis of the deposited data

How the results depend on the processing

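The changes of H3K27ac length and pieces and of H3K4me3 and H3K9me3 length kept their direction under every alternative run. The difference in summed H3K27ac reads, unscaled for depth (-0.4%), did not, at -4.06 to 3.25% without 1 library (added after the data were examined). The number of domains was 2670 at a minimum of 20000 bp and 434 at 50000 bp, and 1041 to 1198 without 1 library. The change of called length was -8.08% at a minimum of 50000 bp, -12.9% with peaks within 1000 bp merged and -12.6% when all lists were limited to the highest of their lowest island scores (39.9), and -11.4 to -8.96% without 1 library. With that common score the rise of pieces was 13.7% in place of 27.5%. Domains with fewer reads were 5.99% at a minimum of 50000 bp. Domains with more reads per called length were 1.57% at 20000 bp, 0.691% at 50000 bp, and 0.639 to 0.879% without 1 library. Without TMM factors, chosen after the data were examined, the median log2 fold change of all regions moved from -0.02 to -0.06. H3K9me3 regions in domains with more reads numbered 2 without TMM factors, 24 with DESeq2 (and 2 with fewer), 3 with the replicate block and 0 to 4 without 1 library. The cause was not tested.

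Replicate numbers were shared between conditions, but their deviations correlated at 0.00389, 0.0307 and 0.00237 for the same number, so they did not pair the libraries, and not every library correlated best with its own number. With the replicate block 9.66% and 3.75% of domains had fewer and more reads, 2% and 0.958% per called length, and the within-number changes were -10.3% for length, 28.2% for pieces, 10.8% for H3K4me3, 10.3% for H3K9me3 and -0.47% for H3K27ac reads. Of the named domains' calls, 1 was lost under the block, at chr11:73451601-73484400 (0.77, edgeR FDR 0.0103). H3K9me3 depth was 29.4 to 32.3 reads per kb, and that of H3K4me3 is unknown.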
